A study of Saccharomyces cerevisiae with 12 samples.

Results

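The cytosolic Hsp70 system of budding yeast was followed through 9 genes of the 7130 gene identifiers counted, taken as a named set of genes. They are the 4 Hsp70 genes SSA1 (YAL005C), SSA2 (YLL024C), SSA3 (YBL075C) and SSA4 (YER103W), the nucleotide exchange factor genes SSE1 (YPL106C), SSE2 (YBR169C) and FES1 (YBR101C), and the J-domain protein genes YDJ1 (YNL064C) and SIS1 (YNL007C). All 9 passed the filter on low counts in every comparison. Messenger RNA and ribosome-protected fragments, the stretches of message covered by translating ribosomes, were sequenced from 2 groups of cultures of Saccharomyces cerevisiae. Pre-treated cultures had spent a night in 10 µM radicicol, which inhibits the chaperone Hsp90, before dilution to an OD600 of 0.001 and 24 h of regrowth, and untreated cultures took the same course without the drug. Each group had 3 RNA libraries and 3 fragment libraries, 12 in all, and 3 colonies were the source of the cultures of both groups. The labels give no strain, no genotype and no density at harvest.

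All 4 groups held reads of a reporter plasmid that the authors had added to the annotation. Its His reporter coding sequence took 1.47% to 1.59% of the counts in pre-treated RNA libraries and 1.02% to 1.31% in untreated ones. In fragment libraries it took 0.915% to 0.992% after pre-treatment and 0.726% to 0.856% without it, a difference whose cause was not tested. Libraries held between 737922 and 2481336 counts, the least in untreated RNA replicate 3. The 9 genes together took 1.05% to 1.09% of the counts in pre-treated RNA libraries and 1.22% to 1.28% in untreated ones. In fragment libraries they took 1.39% to 1.45% after pre-treatment and 1.64% to 1.75% without it. No spike-in was described, so each change is one of a gene's share of its library and not of its amount per cell.

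Hsp70 proteins bind exposed hydrophobic stretches of other proteins and release them in a cycle driven by ATP. J-domain proteins bring clients to Hsp70 and set off ATP hydrolysis, and nucleotide exchange factors remove the ADP so that the client is let go. In the yeast cytosol this cycle folds new proteins, hands clients to Hsp90 and works with the disaggregase Hsp104 on aggregates. Hsp70 also holds the heat shock transcription factor Hsf1 in check, and Hsf1 in turn drives many chaperone genes, among them several of the genes described here. SSA1 and SSA2 are known as the forms made in growing cells, with SSA1 rising further under heat, while SSA3 and SSA4 are known as the stress-inducible forms.

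Each gene was counted as 1 exon feature, and coordinates are those of R64-1-1. SSA1 is at chromosome I, 139503 to 141431, SSA2 at chromosome XII, 95566 to 97485, SSA3 at chromosome II, 84499 to 86448, and SSA4 at chromosome V, 364589 to 366517. SSE1 is at chromosome XVI, 350194 to 352275, SSE2 at chromosome II, 573915 to 575996, and FES1 at chromosome II, 443821 to 444693. YDJ1 is at chromosome XIV, 505868 to 507097, and SIS1 on the same chromosome at 618507 to 619565. SSA4 is on the plus strand and the other 8 on the minus strand. None overlaps another feature on its own strand, and only SSA1 has a feature opposite to it, YAL004W, which strand-specific counting keeps apart. SSA1 and SSA2 are close paralogs, and a read with several possible origins was not counted, so their levels, and to a lesser degree those of the other paralogs, are uncertain and may be too low.

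Per unit of length SSA1 was the most abundant of the 9 in all 4 groups. Its RNA level was 2206 ± 58.2 CPM per kilobase (CPM being counts divided by the scaled library total, per 1e6) in pre-treated cultures and 2881 ± 190.0 in untreated ones (SD, n = 3 each), rank 72 and 53 of 5578 genes. SIS1, a J-domain protein that directs Hsp70 to misfolded proteins, came next at 1021 ± 28.6 and 1090.3 ± 74.6 CPM per kilobase. FES1 was the lowest in RNA, at 263 to 287 CPM per kilobase in pre-treated cultures and 215 to 256 in untreated ones.

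The order in between differed between the groups. In pre-treated RNA the genes followed as SSE1, SSA2, YDJ1, SSA4, SSE2 and SSA3, where the ranges of SSA4 and SSE2 overlapped and so did those of SSE2 and SSA3. In untreated RNA they followed as SSE1, SSA3, SSA4, SSA2, SSE2 and YDJ1, where the ranges overlapped between SSE1 and SSA3, between SSA4 and SSA2 and between SSA2 and SSE2. SSA3 thus stood above only FES1 after pre-treatment, and above 5 of the other genes without it. In fragments SSA3 was the lowest of all after pre-treatment, at 311 ± 11.2 CPM per kilobase, against 575 ± 22.6 in untreated cultures, where it stood above YDJ1 and FES1.

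**Figure D1:**
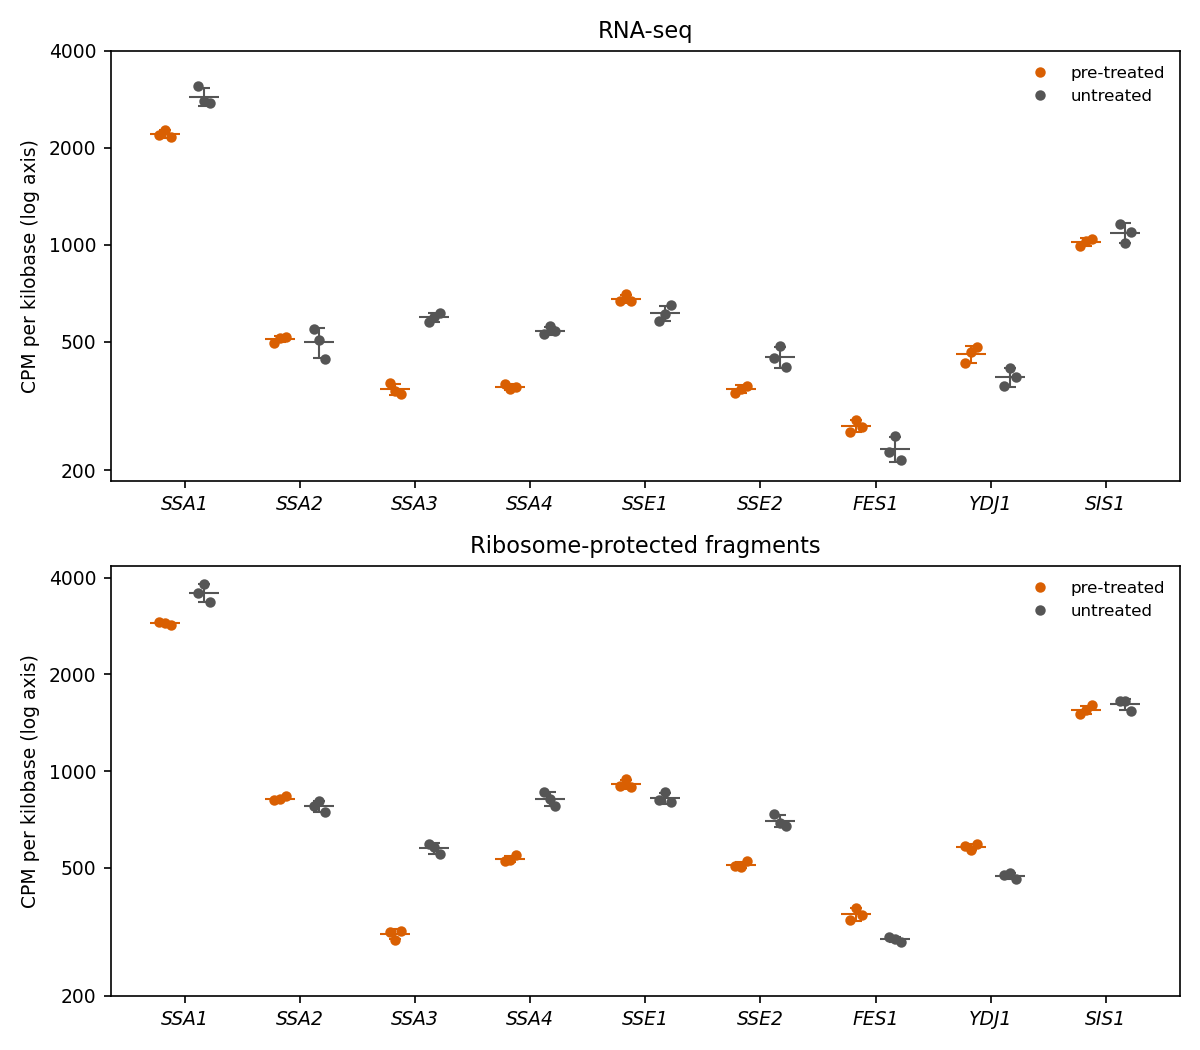
CPM per kilobase (log axis) of the 9 genes in RNA (top) and ribosome-protected fragments (bottom); each point is 1 library, bars are the mean and SD of 3, with pre-treated left of untreated. SSA1 lies above the other genes in each group, and for SSA1, SSA3, SSA4 and SSE2 every pre-treated point lies under every untreated one.

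Among the Hsp70 genes, the comparison of pre-treated with untreated cultures asked what differed after a day without the drug. All libraries were taken after regrowth, so a change under the drug itself was not measured. Both stress-inducible genes and SSA1 were lower in RNA and in fragments, and SSA2 was not called in either. SSA3 RNA stood at 727, 687 and 672 CPM in pre-treated replicates 1 to 3, against 1125, 1162 and 1200.2 CPM in untreated replicates 1 to 3. The highest pre-treated library was well under the lowest untreated one. The fitted RNA level was 0.599 of the untreated level (log2 -0.74, SE 0.09, adjusted p = 2.57e-06, edgeR quasi-likelihood test with Benjamini-Hochberg adjustment, used for every adjusted p below).

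SSA3 fragments were 616, 580.3 and 620.1 CPM in pre-treated cultures, against 1159, 1133 and 1073 CPM in untreated ones. At 0.540 of the untreated level (log2 -0.89, SE 0.08, adjusted p = 4.64e-09), this was the largest change among the 9 genes. Within the 5090 genes tested for fragments it lay at the 0.668 percentile, counted from the strongest fall, and in RNA at the 1.40 percentile of 5578.

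SSA4 RNA stood at 715, 687 and 699 CPM in pre-treated cultures, against 1017, 1077 and 1042 CPM in untreated ones. Its fragments were 1009.8, 1022 and 1055 CPM after pre-treatment, against 1664, 1581 and 1501 CPM without it. Neither set of groups overlapped, and the replicates of a treatment lay close together. The gene fell to 0.670 of the untreated level in RNA (log2 -0.58, SE 0.09, adjusted p = 6.96e-05) and to 0.650 in fragments (log2 -0.62, SE 0.08, adjusted p = 1.19e-06).

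SSA1 RNA stood at 4222, 4382 and 4165 CPM in pre-treated cultures, against 5978, 5383 and 5310.3 CPM in untreated ones. SSA1 fragments were 5638, 5560.5 and 5496 CPM after pre-treatment, against 6897, 7401 and 6495 CPM without it. The pre-treated libraries were again all lower, while the untreated ones spread more widely. The fall to 0.766 in RNA (log2 -0.39, SE 0.10, adjusted p = 0.0125) was less firm than that of SSA3 or SSA4. Leaving out pre-treated replicate 1, 2 or 3 ended the call (adjusted p = 0.0731, 0.0798 and 0.0769), as did leaving out untreated replicate 1 (0.0620), and the adjusted p ranged from 0.000565 to 0.0798 over all 11 alternatives. The fall to 0.803 in fragments (log2 -0.32, SE 0.07, adjusted p = 0.00273) was called under every one of the 11 alternatives tried.

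SSA2, whose protein is nearly the same as that of SSA1, was not called. SSA2 RNA stood at 954, 986 and 994 CPM in pre-treated cultures, against 1052, 973 and 850.3 CPM in untreated ones, and the groups overlapped. Its log2 change was 0.02 (SE 0.10, adjusted p = 0.902), an interval of 2 SE either side reaching from -0.17 to 0.22, and the sign turned with upper-quartile scaling (-0.01). In fragments it stood at 1563, 1568 and 1603 CPM after pre-treatment, against 1499, 1546 and 1433 CPM without it (log2 0.08, SE 0.07, adjusted p = 0.569, interval -0.07 to 0.23). A p that misses the threshold does not show that SSA2 was unaltered, but neither interval reaches the log2 change fitted for SSA1, SSA3 or SSA4. The difference between SSA2 and those genes was not itself tested.

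Among the nucleotide exchange factors, 1 gene of the Hsp110-type pair fell and the other was not called. SSE1 is the abundant form of growing cells, and SSE2 is known as its stress-inducible paralog. SSE2 RNA stood at 722, 746 and 762 CPM in pre-treated cultures, against 925, 1009 and 871 CPM in untreated ones. SSE2 fragments were 1051, 1047 and 1090.5 CPM after pre-treatment, against 1529, 1439.8 and 1403 CPM without it. All pre-treated values lay under all untreated ones in both kinds of library. The fall in fragments to 0.729 (log2 -0.46, SE 0.08, adjusted p = 9.78e-05) was called under all 11 alternatives.

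The fall of SSE2 RNA to 0.793 (log2 -0.33, SE 0.09, adjusted p = 0.0182) was less firm. The call ended without pre-treated replicate 1 (adjusted p = 0.0970), 2 (0.108) or 3 (0.0539) and without untreated replicate 2 (0.0558), and its adjusted p ranged from 0.00750 to 0.108 over the alternatives.

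SSE1 RNA stood at 1394, 1464 and 1392 CPM in pre-treated cultures, against 1211, 1273 and 1351 CPM in untreated ones. Its fragments were 1872, 1968 and 1855 CPM after pre-treatment, against 1688, 1791 and 1667 CPM without it. The pre-treated libraries were all the higher ones, but the gap was small beside the spread. The fitted log2 value was 0.15 in RNA (SE 0.10, adjusted p = 0.336) and 0.15 in fragments (SE 0.07, adjusted p = 0.230), and neither passed.

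FES1, an exchange factor unrelated to the Hsp110 family, had 229, 250.2 and 237 CPM of RNA in pre-treated cultures, against 199, 224 and 187 CPM in untreated ones. In fragments it had 299, 327 and 312 CPM after pre-treatment, against 266, 262 and 257 CPM without it. Again no values overlapped, and again the test missed the threshold in RNA (log2 0.22, SE 0.10, adjusted p = 0.170). The fragments came nearest to it, at 0.26 on the log2 scale (SE 0.09, adjusted p = 0.0553, and 0.0521 to 0.227 over the alternatives).

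Of the J-domain protein genes, YDJ1, which encodes the farnesylated general partner of Ssa proteins, was higher in fragments. It had 717, 700.5 and 728 CPM of fragments in pre-treated cultures, against 582, 594 and 568 CPM in untreated ones. That rise to 1.23 of the untreated level (log2 0.30, SE 0.08, adjusted p = 0.0105) was not called without untreated replicate 3 (adjusted p = 0.0536), and the adjusted p ranged from 0.00764 to 0.0536. In RNA YDJ1 had 528, 572 and 594 CPM after pre-treatment, against 447, 512 and 478 CPM without it (log2 0.24, SE 0.10, adjusted p = 0.112), which did not pass, although the groups did not overlap.

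SIS1 was not called. Its RNA stood at 1048, 1087 and 1108 CPM in pre-treated cultures, against 1231, 1073 and 1159 CPM in untreated ones. SIS1 fragments were 1599.8, 1637 and 1698 CPM after pre-treatment, against 1751, 1749.5 and 1630.0 CPM without it. The groups overlapped in both, and the log2 change was -0.09 in RNA (SE 0.10, adjusted p = 0.569, interval -0.29 to 0.10) and -0.06 in fragments (SE 0.08, adjusted p = 0.711, interval -0.21 to 0.09).

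**Figure D2:**
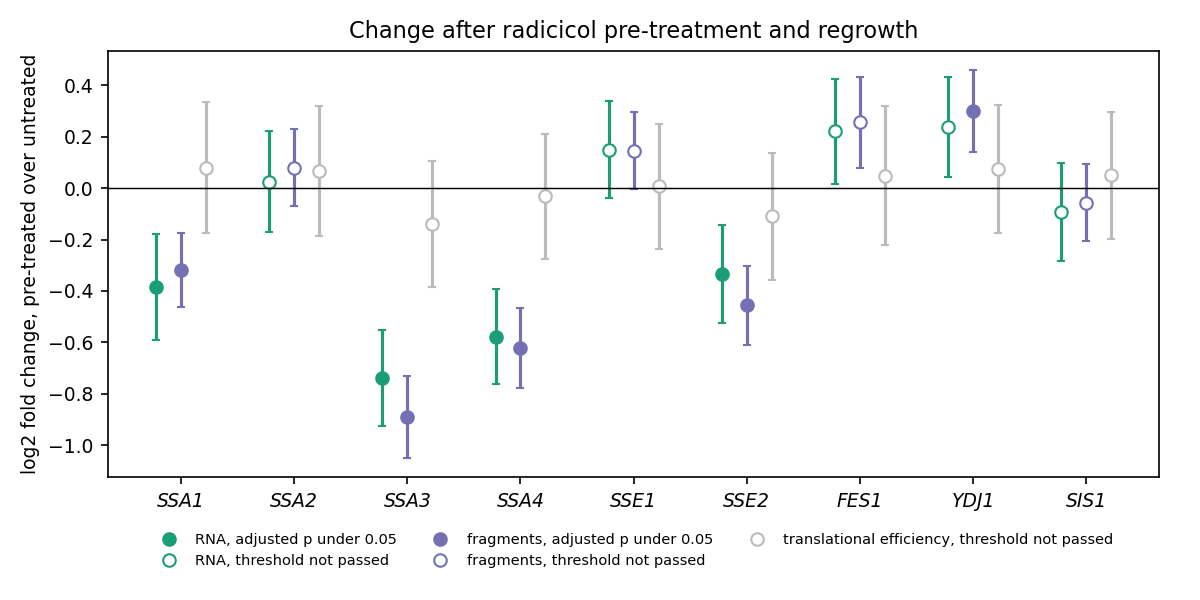
Fitted log2 fold change of pre-treated over untreated cultures for RNA, fragments and translational efficiency; bars are 2 SE either side, and filled points have an adjusted p under 0.05. SSA1, SSA3, SSA4 and SSE2 lie under 0 in RNA and fragments, YDJ1 is the 1 filled point above 0, and no efficiency is filled.

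In counts, 4 of the 9 genes fell in RNA, where 6.06% of all genes tested fell, and 0 rose, where 7.17% rose. At an unadjusted p under 0.05, 2 of the 9 were higher and 4 lower in RNA, where 767 and 696 of all 5578 genes were. DESeq2 also called 0 of the 9 higher and 4 lower, where it called 267 and 224 of all genes. In fragments 4 of the 9 fell, against 4.85% of all genes, and 1 rose, against 8.53%. The CPM of the treatments did not overlap for 7 of the 9 genes in RNA and for 8 in fragments, where 30.0% and 29.4% of all genes did not overlap. The median log2 change of the 9 was -0.09 in RNA and -0.06 in fragments, beside -0.00237 and -0.00872 over all genes tested. The 9 values spread to both sides of 0, from -0.74 for SSA3 to 0.24 for YDJ1 in RNA. The summed level of the 9 was 10674 ± 167 CPM of RNA in pre-treated cultures and 12774 ± 376 CPM in untreated ones, and SSA1 alone makes up much of that sum.

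Ratios of 2 genes within a library need no scaling between libraries, and they show how the make-up of the system differed. With 3 libraries against 3 an exact permutation test cannot give a two-sided p under 0.1, so the ratios are given with no test. SSA4 had 0.747, 0.693 and 0.701 times the counts per length of SSA2 in pre-treated RNA libraries, against 0.963, 1.10 and 1.22 times in untreated ones. In fragments the ratio was 0.643, 0.649 and 0.655 after pre-treatment, against 1.10, 1.02 and 1.04 without it. In these counts SSA4 was thus about level with SSA2 in untreated cultures and below it in every pre-treated library. Reads with several origins, which were not counted, could shift this ratio, so it does not show which message was the more abundant.

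SSA3 had 0.388, 0.365 and 0.381 times the fragments per length of SSA2 in pre-treated libraries, against 0.761, 0.721 and 0.737 times in untreated ones. In RNA that ratio was 0.701 ± 0.0440 after pre-treatment and 1.21 ± 0.171 without it (SD, n = 3 each). In these counts SSA3 RNA matched or exceeded SSA2 RNA in untreated cultures, while its fragments stayed under those of SSA2 in both groups. Uncounted reads of SSA2 could shift these ratios too, and may do so unequally in RNA and in fragments. SSA1 had 4.33 ± 0.140 times the RNA of SSA2 after pre-treatment and 5.79 ± 0.374 times without it, a ratio that reads lost to both paralogs could distort.

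Within the exchange factors, SSE2 had 0.562, 0.532 and 0.588 times the fragments of SSE1 per length in pre-treated cultures, against 0.906, 0.804 and 0.841 times in untreated ones. In RNA the ratio of SSE2 to SSE1 was 0.525 ± 0.0199 and 0.734 ± 0.0780. SIS1 had 2.67 ± 0.0696 times the fragments of YDJ1 after pre-treatment and 3.42 ± 0.0785 times without it, and in RNA 2.23 ± 0.0732 and 2.82 ± 0.381 times. The ratio of FES1 to SSE1 in RNA, 0.402 ± 0.00833 in pre-treated and 0.381 ± 0.0450 in untreated cultures, overlapped between the treatments. In fragments it was 0.382, 0.396 and 0.401 after pre-treatment, against 0.376, 0.348 and 0.367 without it, higher in all pre-treated libraries.

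**Figure D3:**
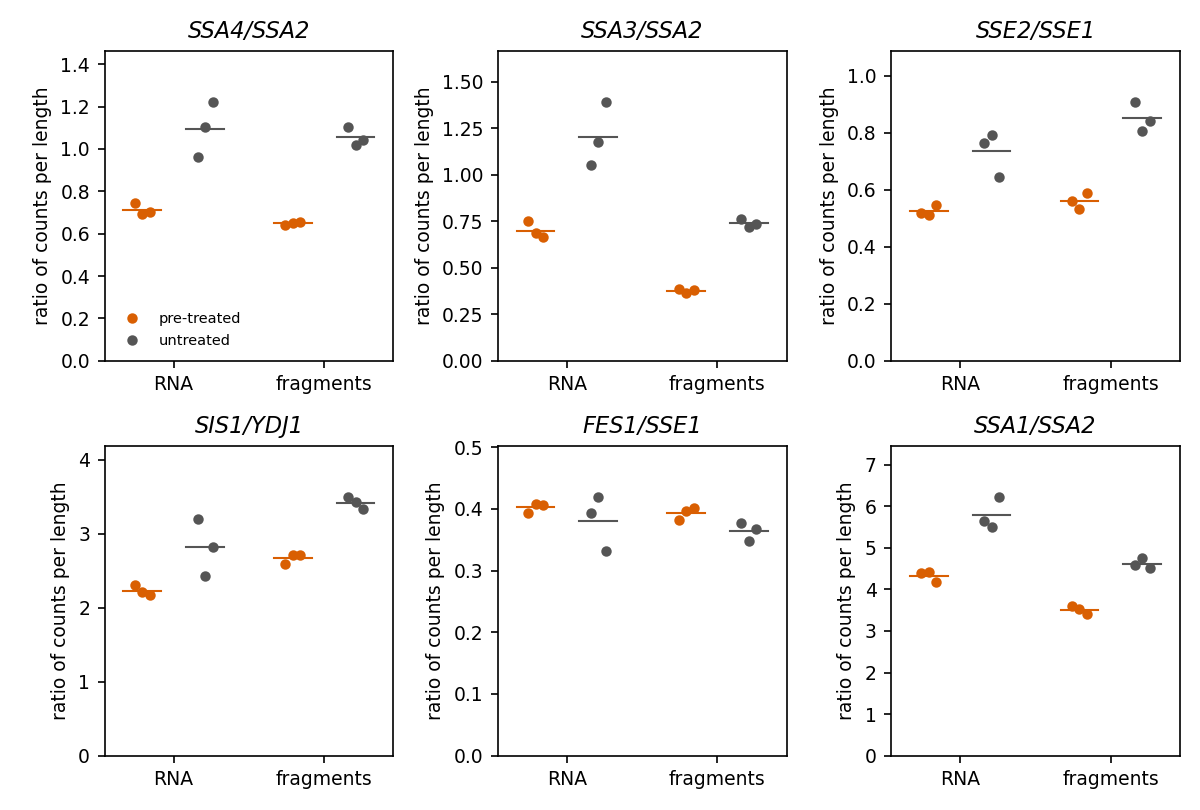
Ratio of counts per length of 2 genes within each library, with pre-treated left of untreated for RNA and for fragments; points are libraries, lines their mean, and axes start at 0. The ratios of SSA4, SSA3 and SSA1 to SSA2, of SSE2 to SSE1 and of SIS1 to YDJ1 are lower in all pre-treated libraries, while that of FES1 to SSE1 overlaps in RNA and is higher after pre-treatment in fragments.

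Summed over the Ssa family, SSA3 and SSA4 made up 21.0% ± 0.707 of the RNA per length in pre-treated cultures and 25.2% ± 1.76 in untreated ones, and 18.5% ± 0.405 and 24.2% ± 0.957 of the fragments. SSA2 made up 18.1% ± 0.288 of the Ssa fragments after pre-treatment and 13.5% ± 0.202 without it, while SSA1 held 63.4% ± 0.668 and 62.3% ± 1.06. The 3 exchange factor genes together had 0.391 ± 0.0105 times the fragments per length of the 4 Ssa genes after pre-treatment and 0.317 ± 0.00944 times without it. For the 2 J-domain protein genes these ratios were 0.469 ± 0.0126 and 0.362 ± 0.00787. In RNA the ratio was 0.382 ± 0.00753 in pre-treated and 0.287 ± 0.0208 in untreated cultures for exchange factors, and 0.431 ± 0.0193 and 0.328 ± 0.0113 for J-domain proteins. Both sums were higher relative to the Ssa sum in each pre-treated library than in any untreated one, which did not hold for SSE2 alone. The Ssa sum is the divisor here. SSA1, its largest part, averaged 2885 CPM of fragments per kilobase after pre-treatment and 3593 without it. The higher ratios therefore do not show that the exchange factor or J-domain protein genes rose as groups. Of the fragments per length of the 9 genes, SSE2 took 6.03% ± 0.109 after pre-treatment and 7.24% ± 0.310 without it. SSE1 took 10.8% ± 0.361 and 8.52% ± 0.212, and FES1 4.23% ± 0.176 and 3.10% ± 0.104.

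Translational efficiency, which sets fragments over RNA, asks whether ribosomes on a message changed by more or less than the message itself. Of the 9 genes 0 were called, where 0.0180% of 5552 genes were (HAC1 alone). An unadjusted p under 0.05 was found for 0 of the 9, and for 439 of the 5552. With a term for the culture that RNA and fragments of 1 number may share, 29 genes were called, and again 0 of the 9 (adjusted p = 0.733 at the lowest, for SSA3). DESeq2 also called 0 of the 8 genes to which it gave an adjusted p. The log2 changes of efficiency ran from -0.14 for SSA3 (SE 0.12, adjusted p = 0.832, interval -0.38 to 0.11) to 0.08 for SSA1 (SE 0.13, adjusted p = 0.919, interval -0.17 to 0.33). The falls of SSA1, SSA3, SSA4 and SSE2 in fragments thus had no detectable part beyond RNA at this depth. On data simulated for this comparison, 69% of the genes given a change of 1 on the log2 scale were recovered, and smaller changes were not simulated.

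As levels, the 9 genes were translated above the median gene, and SSA3 stood apart from the rest. Relative to the median gene of the culture, the log2 efficiency of SSA3 was 0.20, 0.21 and 0.31 in pre-treated replicates 1 to 3, against 0.46, 0.40 and 0.29 in untreated replicates 1 to 3. Its mean of 0.24 ± 0.06 and of 0.38 ± 0.09 (SD, n = 3 each) put it at the 63.5 and 70.8 percentile of 5552 genes. The other 8 genes had means of 0.78 for YDJ1 to 1.13 for SSA2 in pre-treated cultures, and of 0.71 for YDJ1 to 1.08 for SSA2 in untreated ones. Every culture thus had a lower value for SSA3 than for any of the other 8 genes. Among the Ssa genes SSA4 had 0.99 ± 0.05 and 1.03 ± 0.08, so the pair of stress-inducible genes, which changed alike in direction, differed in how densely ribosomes covered them. These levels carry no test, and reads shared between paralogs may have been lost unequally.

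**Figure D4:**
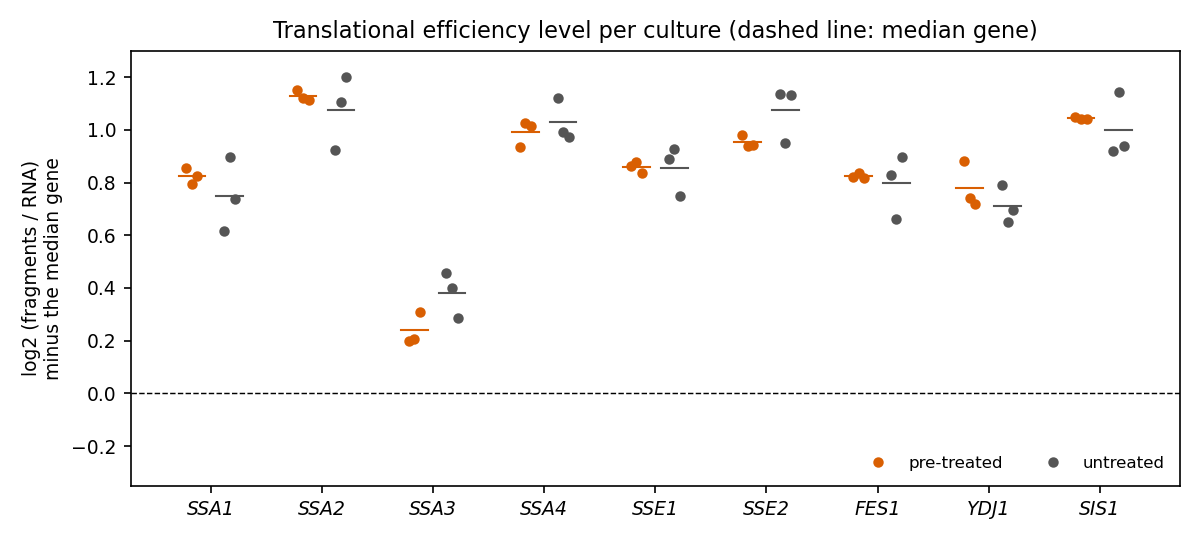
Log2 ratio of fragments to RNA for each gene and culture, minus that of the median gene (dashed line at 0); points are cultures, lines the mean of 3, with pre-treated left of untreated. SSA3 lies between 0.20 and 0.46, under each of the other 8 genes, and the treatments overlap for all 9.

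Other chaperones that work with Hsp70 were taken as a list of 20 genes, which holds further cytosolic Hsp70s and J-domain proteins, Hsp90, its co-chaperone Sti1, the disaggregase and small heat shock proteins. In RNA 3 fell and 0 rose, where 6.06% of all genes fell and 7.17% rose, with a median log2 change of -0.04 for the list. At an unadjusted p under 0.05, 4 were lower and 0 higher, where 696 and 767 of all 5578 genes were. DESeq2 called 3 of the list lower and 0 higher, where it called 224 and 267 of all genes. The small heat shock protein gene HSP26 averaged 11055 ± 1042 CPM of RNA in pre-treated and 18080.1 ± 2671 CPM in untreated cultures (log2 -0.71, SE 0.12, adjusted p = 0.000195). The others were STI1, whose protein links Hsp70 to Hsp90 (-0.32, SE 0.10, adjusted p = 0.0279), and the Hsp90 gene HSP82 (-0.33, SE 0.10, adjusted p = 0.0309). STI1 and HSP82 were not called without any 1 of the 3 pre-treated libraries (adjusted p = 0.0830, 0.150 and 0.118 for STI1, and 0.138, 0.195 and 0.0622 for HSP82, without replicates 1, 2 and 3) or without untreated replicate 1 (0.101 and 0.103), nor HSP82 without untreated replicate 2 (0.0702).

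In fragments 19 of the list were tested, and 2 fell and 2 rose, where 4.85% of all genes fell and 8.53% rose, with a median log2 change of 0.00839. At an unadjusted p under 0.05, 4 were higher and 2 lower, where 724 and 553 of all 5090 genes were. The disaggregase gene HSP104 averaged 8420.1 ± 259.6 CPM in pre-treated and 10655 ± 484 CPM in untreated cultures (log2 -0.34, SE 0.07, adjusted p = 0.000961), and HSP26 fell by 0.48 (SE 0.07, adjusted p = 1.14e-05). The risers were the genes of the ribosome-associated complex, an Hsp70 and J-domain pair at the exit tunnel. SSZ1 averaged 309 ± 9.10 CPM in pre-treated and 237 ± 17.1 CPM in untreated cultures (log2 0.38, SE 0.09, adjusted p = 0.00421). ZUO1 rose by 0.28 (SE 0.09, adjusted p = 0.0432). In RNA neither was called, and the signs were opposite, at 0.18 for SSZ1 (SE 0.10, adjusted p = 0.268) and -0.18 for ZUO1 (SE 0.10, adjusted p = 0.236). The ZUO1 call ended without any 1 library (adjusted p = 0.0626 to 0.158), with a replicate block, upper-quartile scaling or DESeq2.

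Of 20 other genes known as Hsf1 targets, of which 6 are also in the list above, 2 rose and 2 fell in RNA, and 1 rose and 1 fell in fragments. The median log2 changes were -0.03 and 0.04. KAR2, the Hsp70 of the endoplasmic reticulum, rose in RNA (log2 0.65, SE 0.10, adjusted p = 6.47e-05) and in fragments (0.60, SE 0.08, adjusted p = 4.76e-06), while STI1 and HSP82 in RNA and HSP104 in fragments fell as above. CUR1, which encodes a sorting factor of misfolded proteins, was the other riser in RNA (0.44, SE 0.14, adjusted p = 0.0337), a call lost on leaving out pre-treated replicate 2 (adjusted p = 0.225) or 3 (0.127) or untreated replicate 1 (0.134) or 2 (0.0623), with upper-quartile scaling (0.0509) and with DESeq2 (0.117). At an unadjusted p under 0.05, 2 of these targets were higher and 5 lower in RNA, where 767 and 696 of all 5578 genes were. DESeq2 called 1 of the targets higher and 2 lower there, where it called 267 and 224 of all genes. With any 1 pre-treated library left out, or untreated replicate 1, 0 of the targets were called lower in RNA. Those fits called 238 of 5604, 163 of 5602, 202 of 5603 and 259 of 5600 genes lower, for pre-treated replicates 1, 2 and 3 and untreated replicate 1. The shares called, at most 2 of 20 in a direction, lie near those of all genes tested given above.

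Of 20 general stress response genes driven by Msn2 and Msn4, transcription factors active in starved or stressed cells, 2 fell and 0 rose in both RNA and fragments, shares near those of all genes. They were DDR2 (log2 -0.70, SE 0.11, adjusted p = 5.28e-05 in RNA, and -0.56, SE 0.12, adjusted p = 0.00546 in fragments) and the cell wall-related gene YGP1 (-0.66, SE 0.11, adjusted p = 0.000157 in RNA, and -0.30, SE 0.07, adjusted p = 0.00461 in fragments). At an unadjusted p under 0.05, 3 of the 20 were higher and 3 lower in RNA, and 5 higher and 3 lower in fragments. Over all genes, 767 were higher and 696 lower of 5578 in RNA, and 724 higher and 553 lower of 5090 in fragments. DESeq2 called 0 of the 20 higher in RNA and 1 in fragments, where it called 267 and 298 of all genes higher. The 0 risers depended on the libraries: in fragments 5 were called higher without untreated replicate 1, 4 without pre-treated replicate 1 and 2 with the replicate block. Those fits called 420 of 5142, 385 of 5133 and 404 of 5090 genes higher. In RNA 2 were called higher with no low-count filter and 1 without untreated replicate 1, without untreated replicate 2 or with the block. In the same order, these fits called 429 of 6502, 334 of 5600, 398 of 5603 and 368 of 5578 genes higher. The median log2 change of the list was -0.03 in RNA and 0.09 in fragments. In translational efficiency edgeR called 0 genes of each of the 3 lists. An unadjusted p under 0.05 was found for 5 partners, 3 Hsf1 targets and 1 stress gene of 20 each, beside 439 of all 5552 genes. DESeq2 called 0 of the 7, 15 and 18 to which it gave an adjusted p, in the same order of lists, beside 5 of 601 genes.

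Across the 12 libraries, with log2 CPM centred within RNA and within fragments, SSA4 varied with SSA3 (Pearson r = 0.99), SSE2 (0.97) and SSA1 (0.93), and against YDJ1 (-0.90), FES1 (-0.86) and SSE1 (-0.84). SSA2 followed none of them closely, with r between -0.42 for SSA3 and 0.53 for FES1. The points share a library, a treatment and its scaling, so these values mostly restate the difference between the treatments. Of 2536 genes with a mean of at least 50 CPM in both kinds of library, those outside the 9 with the pattern most like SSA4 were the phosphate transporter gene PHO84 (r = 0.989), the alcohol dehydrogenase gene ADH1 (0.981) and the proline oxidase gene PUT1 (0.975). The correlation ignores the size of a change. The log2 change in RNA and fragments was -2.30 and -2.22 for PHO84, -0.86 and -0.96 for ADH1 and -0.82 and -0.74 for PUT1, against -0.58 and -0.62 for SSA4. For SSE1 the most alike genes were SPT16 (0.941), QCR7 (0.939) and GSH2 (0.929), and for SSA2 the Hsp90 co-chaperone gene HCH1 (0.875), YBR096W (0.867) and EAP1 (0.862).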

How the data were processed

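The authors deposited unnormalised read counts for each library. According to those files' headers, featureCounts 1.6.2 counted forward-strand reads over single exon features, with R64-1-1 genes and a plasmid as annotation, and left out multi-mapping reads. The submitters' processing notes also name the build sacCer3, SAMtools 1.9, STAR 2.7.1a and cutadapt 1.18. Features were summed to 7130 identifiers, and 6048 had a symbol in a RefSeq table. Lengths were multiples of 3 for 96.4% of identifiers, so they are mostly coding lengths.

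R 4.3.3 with edgeR 4.0.16 (robust quasi-likelihood F test, TMM scaling, filterByExpr at its count minimum of 10 and total of 15) compared pre-treated with untreated cultures over 6 RNA libraries, over 6 fragment libraries, and as an interaction over all 12 for translational efficiency. Adjustment ran over the whole table at a threshold of 0.05. The SE of a log2 change came from its F statistic. Efficiency levels used a pseudocount of 0.5 counts and paired RNA with fragments of the same number and treatment. DESeq2 1.42.0 was an alternative. The models were tested on simulated data. 3 counts correspond to 1.21 to 4.07 CPM, a limit of counting error only. P-values measure the spread between libraries, and the labels do not say whether a number marks 1 colony in both treatments.

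The 9 genes and the 3 lists were chosen with earlier results of these data known. The rule named all 9 genes, the 3 genes of each list and comparison with the smallest adjusted p among those called, any further gene where 5 or fewer were called, and the 3 genes most like SSA4, SSA2 and SSE1. The ratio of SSA1 to SSA2 and the sums over groups of genes were chosen after values were seen. No sequence is shown.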

Additional observations from a re-analysis of the deposited data

How the results depend on the processing

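Each change called among the 9 genes kept its sign under 11 alternatives in RNA and in fragments, and 0 of the 9 passed for translational efficiency under 12. The calls themselves did not all hold. SSA1 and SSE2 in RNA each passed in 7 of the 11, and YDJ1 in fragments in 10. Genes called over the whole table numbered 738 in RNA, 491 with DESeq2 and 407 to 743 with 1 library left out. In fragments they numbered 681, 446 with DESeq2 and 442 to 667 with 1 library left out. For translational efficiency 1 gene was called, and 5 with DESeq2, 6 with no low-count filter, 2 with a replicate block, 29 with a term for each culture and 0 to 3 with the libraries of 1 culture left out. Of the 9 genes, 2 to 4 were lower in RNA and 0 to 1 higher in fragments with 1 library left out.

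Values near 0 changed sign. SSA2 in RNA was -0.00885 with upper-quartile factors and -0.0529 to 0.0959 with 1 library left out. In efficiency SSE1 was -0.0191 with upper-quartile factors and -0.0535 to 0.0442 with 1 culture left out, SSA2 -0.00554 to 0.112, SSA4 -0.0672 to 0.0213 and FES1 -0.0244 to 0.0847. The cause was not tested, and fewer samples enter each fit with libraries left out.

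Whether replicate numbers pair the treatments was not settled, since 3 libraries a group are too few to show that a weak pairing is absent. Same-numbered libraries had correlations of deviations from 0.00008 to 0.07 in RNA and from -0.14 to 0.04 in fragments. Those with other numbers had -0.05 to 0.03 in RNA and -0.09 to 0.12 in fragments. Between RNA and fragments of 1 number they were 0.130 to 0.213 in pre-treated and 0.0486 to 0.0848 in untreated cultures, and each fragment library correlated best with the RNA library of its number. The fit with a replicate block called 673 genes in RNA and 628 in fragments and ended no call among the 9 genes. A pseudocount of 5 moved 7 of 18 efficiency levels by more than their SD, all in pre-treated cultures. Those SDs ran from 0.00476 to 0.0886 in pre-treated and from 0.0727 to 0.141 in untreated cultures, so the yardstick differed between the treatments. Lengths of uniquely mapped windows were not run, since no genome was used here. Counting depth limits FES1 most, at the lowest counts of the 9.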
